A study of Mus musculus with 6 samples.

Results

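The machinery of regulated exocytosis was followed through 37 genes, taken by symbol from a list of vesicle docking, priming, calcium-sensing and prohormone-processing genes, in single nuclei of the mouse adrenal gland. All 37 symbols were present in the gene tables of all 6 libraries, among the 30406 genes that both annotations used by the submitters share. The study set glands of Tmem127 knockout mice (KO) against wild type (WT). Tmem127 encodes an endosomal and lysosomal membrane protein and is known as a tumour suppressor of phaeochromocytoma, a tumour of chromaffin cells.

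All animals were female C57BL/6 J mice of 10 to 11 months, and each library came from a pair of frozen adrenals, from which DAPI-stained nuclei were sorted and sequenced with droplet 3′ counting. By their labels, 2 libraries were KO and 3 were WT. The last carries WT in its title but KO as its genotype, and it is called the unassigned library, enters no comparison of groups, and is given as its own value. Which part of Tmem127 was removed is not in the labels, nor in which cells, or whether the mice came from 1 line or litter.

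The libraries held 2886 to 4653 barcodes and 4825169 to 43377724 UMIs (unique molecular identifiers, 1 for each captured RNA molecule), with a median of 1289 to 7675 UMIs per barcode. After removal of 48 low-quality barcodes and 641 called doublets, 21035 nuclei remained. Of all barcodes, 72 occurred in more than 1 library. Tmem127 itself stood at 45.9 and 45.2 CPM (UMIs of the gene, scaled to a common total of UMIs in the summed nuclei) over all nuclei in the libraries labelled KO, at 38.1, 38.1 and 36.2 CPM in those labelled WT, and at 36.3 CPM in the unassigned library, so its counts were not lower in the KO-labelled libraries (log2 fold 0.23 ± 0.14, adjusted p = 0.754, edgeR quasi-likelihood test with Benjamini-Hochberg adjustment). A 3′ count outside a deleted part checks nothing, so directions below refer to the libraries as labelled. Beside the genotype labels, the ribosomal-RNA-rich locus Gm42418 was also higher in both KO-labelled libraries, at 12553 and 9480 CPM in chromaffin-like nuclei against 5435, 5167 and 2484 CPM. The unassigned library had 2274 CPM there, below every grouped library.

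In a neuroendocrine cell, hormone waits in dense-core granules until calcium entry triggers their fusion with the cell membrane. SNARE proteins of granule and membrane zip together to drive fusion, synaptotagmins sense the calcium, Rab3 GTPases and their effectors tether granules, and CAPS and Munc13 proteins prime them. Adrenal chromaffin cells are a classic model of this machinery and release catecholamines with granins and neuropeptides, whereas the steroid hormones of the cortex leave cells without granule storage.

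The nuclei were clustered without the 37 genes and classes were called "-like" from marker lists. Of 16 classes, 13 had 20 or more nuclei in every grouped library. Among them were chromaffin-like (1064 nuclei), zona glomerulosa-like (3056, the outer, aldosterone-making cortex) and zona fasciculata-like nuclei (2932, the glucocorticoid-making cortex). Cluster 16 (380 nuclei, led by Lrrtm4, Fam19a1 and Dach2) passed on 12 chromaffin markers but stays unnamed, because none of them was among its 10 leading genes while the neuronal gene Elavl4 was. Clusters 4 and 8 (2175 and 1288 nuclei) carried cortical markers of more than 1 zone. Since clusters reflect genes that vary with the members, the levels by class that follow are descriptions without a test.

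Most members were highest in chromaffin-like nuclei or in cluster 16, and a minority elsewhere. For 22 of the 37 members, chromaffin-like nuclei and cluster 16 both lay above all 11 other classes in 6 of 6 libraries, a pattern held by 2.64% of the 15245 genes with a mean of at least 1 CPM over the classes. Chromaffin-like nuclei alone lay above those 11 classes in 6 of 6 libraries for 24 members, against 4.11% of genes. The class with the highest mean was cluster 16 for 14 members and the chromaffin-like class for 13. The other 10 peaked in 7 further classes. They were Rims1, Sv2b and Sv2c (Schwann or sustentacular-like), Nsf and Cpe (zona glomerulosa-like), Stx1a (capsule or fibroblast-like), Vamp2 (T or NK-like), Rab3a (cluster 15), Cadps2 (adipocyte-like) and Unc13c (cluster 8). These are peaks of the mean. Rims1, Stx1a, Vamp2 and Cadps2 were highest in the named class in 3 of 6 libraries, and Rab3a in 2.

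**Figure D1:**
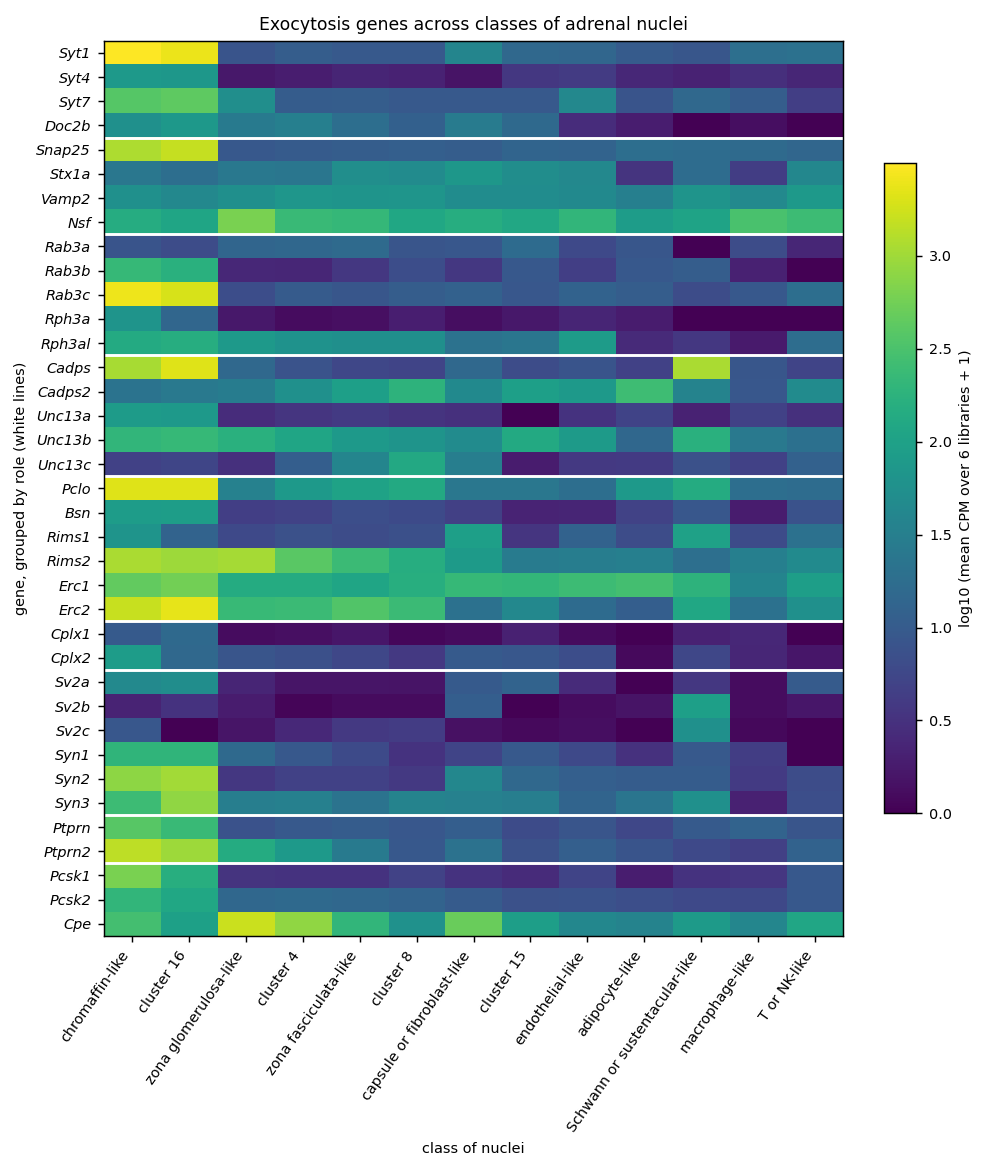
Each row is a gene and each column a class of nuclei, and the colour gives log10 of the mean CPM over 6 libraries plus 1. The first 2 columns, chromaffin-like and cluster 16, are the brightest for most rows, while Nsf and Cpe are brightest in the zona glomerulosa-like column, at means of 615 and 1625 CPM.

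Free RNA can place chromaffin transcripts in other nuclei, so Th, Dbh, Chga and Chgb, abundant chromaffin RNAs, served as a yardstick. In zona glomerulosa-like nuclei these 4 genes stood at 0.737% to 3.85% of their chromaffin-like level in the same library. Syt1 (0.164% to 0.323%) and Rab3c (0.140% to 0.362%) lay below that band. By contrast 20 of the 37 members exceeded all 4 yardstick genes in every library there, among them Syn1 at a median of 8.34%, Erc2 at 14.4% and Unc13b at 83.1%. The number was 17 in zona fasciculata-like, 18 in capsule or fibroblast-like, 11 in endothelial-like and 3 in T or NK-like nuclei. It was 18 in cluster 4, 16 in cluster 8, 11 in Schwann or sustentacular-like nuclei, 9 in cluster 15, 6 in adipocyte-like and 5 in macrophage-like nuclei. The yardstick band was 0.809% to 2.58% in capsule or fibroblast-like but 0.0% to 9.68% in T or NK-like nuclei, whose sums started at 26836 UMIs. Counts of sparse and deep classes are therefore not alike.

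Among the calcium sensors, Syt1, the fast synaptotagmin of synaptic vesicles and chromaffin granules, ranged from 2598 to 3837 CPM in chromaffin-like nuclei (median 3011) and from 2024 to 3257 CPM in cluster 16 (median 2316). Its highest mean in the other 11 classes was 37.9 CPM, in capsule or fibroblast-like nuclei. No library of either class came near another class. Syt7, the high-affinity sensor of slow granule fusion, ranged from 305 to 474 CPM and from 352 to 514 CPM in the same classes, against a mean of 52.5 CPM in zona glomerulosa-like nuclei. Syt4, an atypical synaptotagmin of peptide granules, had means of 76.2 and 70.0 CPM and at most 3.02 CPM elsewhere. Doc2b, a soluble calcium sensor, was less restricted, with means of 56.5 and 72.5 CPM against 31.1 CPM in cluster 4.

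The SNARE proteins did not share 1 pattern. Snap25, the membrane SNARE of neurons and endocrine cells, ranged from 790.1 to 1488 CPM in chromaffin-like nuclei and from 1044 to 2094 CPM in cluster 16, with no mean above 17.2 CPM elsewhere. Its partners were not highest in these classes. Stx1a, the membrane syntaxin, averaged 23.2 CPM in chromaffin-like nuclei and 69.1 CPM in capsule or fibroblast-like nuclei. Vamp2, the vesicle SNARE, averaged 55.5 CPM in chromaffin-like nuclei, and its means over the 13 classes ran only from 31.6 CPM (adipocyte-like) to 78.1 CPM (T or NK-like). Levels of these last 2 genes in many classes overlapped from library to library.

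Nsf encodes the ATPase that pulls spent SNARE complexes apart, a step used by membrane traffic in every cell. It was counted in all 13 classes and was highest in zona glomerulosa-like nuclei in 6 of 6 libraries, with values of 368 and 293 CPM in the KO-labelled, 835, 489 and 530 CPM in the WT-labelled and 1175 CPM in the unassigned library. The next class, macrophage-like, spanned 228 to 369 CPM, and chromaffin-like nuclei 101 to 175 CPM. The zona glomerulosa-like range was thus the widest and partly overlapped that of macrophage-like nuclei. Outside these classes, the 210 B or plasma-like nuclei held 175 Nsf UMIs in all, and with 597 and 638 CPM exceeded the zona glomerulosa-like values in both KO-labelled libraries. In GENCODE vM21 (mm10) Nsf spans chr11:103821782-103954056 on the minus strand, and the processed pseudogene Gm8738 lies inside it on the same strand.

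Of the Rab3 GTPases, Rab3c (1936 to 3463 CPM, median 2235) and Rab3b (155 to 266 CPM, median 223) were chromaffin-like, with means of 1926 and 167 CPM in cluster 16 and none above 17.2 and 9.74 CPM elsewhere. Rab3a, the main Rab3 of brain synapses, was not: its mean was 7.07 CPM in chromaffin-like nuclei and 15.9 CPM in cluster 15. Rab3a overlaps Mpv17l2 on the opposite strand, and no source used here says how strand was handled in counting. Rph3a, the Rab3 effector rabphilin, averaged 63.6 CPM in chromaffin-like nuclei, 13.4 CPM in cluster 16 and at most 1.34 CPM in any other class. The related Rph3al (Noc2) was broader, with means of 135 and 151 CPM in chromaffin-like nuclei and cluster 16 and 82.7 CPM in endothelial-like nuclei.

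Both CAPS priming factors were found, in different cells. Cadps (CAPS1) ranged from 1005 to 1369 CPM in chromaffin-like nuclei and from 1681 to 2746 CPM in cluster 16. Schwann or sustentacular-like nuclei, which surround nerve fibres and chromaffin cells, carried 766 to 1337 CPM and overlapped the chromaffin-like range. Cadps2 (CAPS2) averaged 20.5 CPM in chromaffin-like nuclei, against 261 CPM in adipocyte-like nuclei and 180.5 CPM in cluster 8. Adipocyte-like nuclei were highest in 3 of 6 libraries. Their WT-labelled values lay below the cluster 8 mean and below the KO-labelled and unassigned values. Among the Munc13 genes, Unc13a averaged 81.2 and 77.2 CPM in chromaffin-like nuclei and cluster 16 and at most 4.06 CPM elsewhere. Unc13b was at closer levels in several classes (201 CPM in chromaffin-like, 165 CPM in zona glomerulosa-like nuclei). Unc13c had means of 3.81 CPM in chromaffin-like nuclei, 128 CPM in cluster 8 and 37.6 CPM in zona fasciculata-like nuclei, and in the 133 mesothelial-like nuclei it averaged 644 CPM with a wide spread between libraries (236 UMIs in all).

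The large scaffolds of the release site were higher in both chromaffin-like nuclei and cluster 16 than in the other classes, with 2 exceptions. Pclo (piccolo) ranged from 1914 to 2365 CPM in chromaffin-like nuclei and from 1756 to 2489 CPM in cluster 16, against a mean of 141 CPM in Schwann or sustentacular-like nuclei. Bsn (bassoon) averaged 84.9 and 88.8 CPM, and no other class exceeded 7.87 CPM. Erc2, an ELKS scaffold, averaged 1596 and 2324 CPM in these classes and 352 CPM in zona fasciculata-like nuclei. Erc1, the more widely expressed ELKS gene, averaged 452 and 556 CPM there and 282 CPM in adipocyte-like nuclei. The exceptions were the RIM genes, whose proteins link granules, Rab3 and calcium channels. Rims1 averaged 98.7 CPM in Schwann or sustentacular-like and 94.3 CPM in capsule or fibroblast-like nuclei, against 62.9 CPM in chromaffin-like nuclei.

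Rims2 was at similar levels in chromaffin-like, cluster 16 and zona glomerulosa-like nuclei. It ranged from 952 to 1268 CPM in chromaffin-like nuclei (median 1138), from 842 to 1076 CPM in cluster 16 and from 727 to 1312 CPM in zona glomerulosa-like nuclei (median 1089). These 3 ranges overlapped. Cluster 4, with a mean of 404 CPM, zona fasciculata-like nuclei, with 241 CPM, and cluster 8, with 149 CPM, followed in that order, and the range of cluster 4 (292 to 528 CPM) lay above every value of cluster 8 (124 to 172 CPM).

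Complexins clamp and promote SNARE zippering. Cplx2 averaged 85.6 CPM in chromaffin-like nuclei, 14.2 CPM in cluster 16 and at most 8.84 CPM elsewhere, and Cplx1 was low throughout, with a highest mean of 14.7 CPM in cluster 16. Of the vesicle proteins, Sv2a averaged 43.8 and 51.6 CPM in chromaffin-like nuclei and cluster 16. Sv2b and Sv2c were instead highest in Schwann or sustentacular-like nuclei (means of 94.7 and 55.7 CPM, from 68 and 32 UMIs), and Sv2b averaged 1.25 CPM in chromaffin-like nuclei. The synapsins, which hold vesicles in reserve, were highest in the same classes. Syn1 averaged 192 and 191 CPM in the 2 classes, Syn2 803 and 1022 CPM and Syn3 248 and 837 CPM, with the highest other mean at 55.5 CPM (Syn3, Schwann or sustentacular-like). Each synapsin gene has a Timp gene on its opposite strand (Timp1, Timp4 and Timp3 in the same order).

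Granule-membrane proteins and processing enzymes closed the list. Ptprn (IA-2) ranged from 264 to 713 CPM in chromaffin-like nuclei and from 178 to 307 CPM in cluster 16. Ptprn2 (phogrin) averaged 1417 and 962 CPM there, with 140 CPM of Ptprn2 in zona glomerulosa-like nuclei. Pcsk1 and Pcsk2, the prohormone convertases, averaged 618 and 198 CPM in chromaffin-like nuclei and at most 8.31 and 14.6 CPM outside chromaffin-like nuclei and cluster 16. Cpe, the carboxypeptidase that trims their products, was higher in 3 other classes than in chromaffin-like nuclei. It ranged from 1394 to 1940 CPM in zona glomerulosa-like nuclei (median 1601), against 655 to 947 CPM in cluster 4, 371 to 640 CPM in capsule or fibroblast-like and 160.3 to 424 CPM in chromaffin-like nuclei. The zona glomerulosa-like range overlapped that of no other tested class. With Nsf, Cpe was 1 of 2 members above all other tested classes in that class in 6 of 6 libraries, as were 1.19% of genes.

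**Figure D2:**
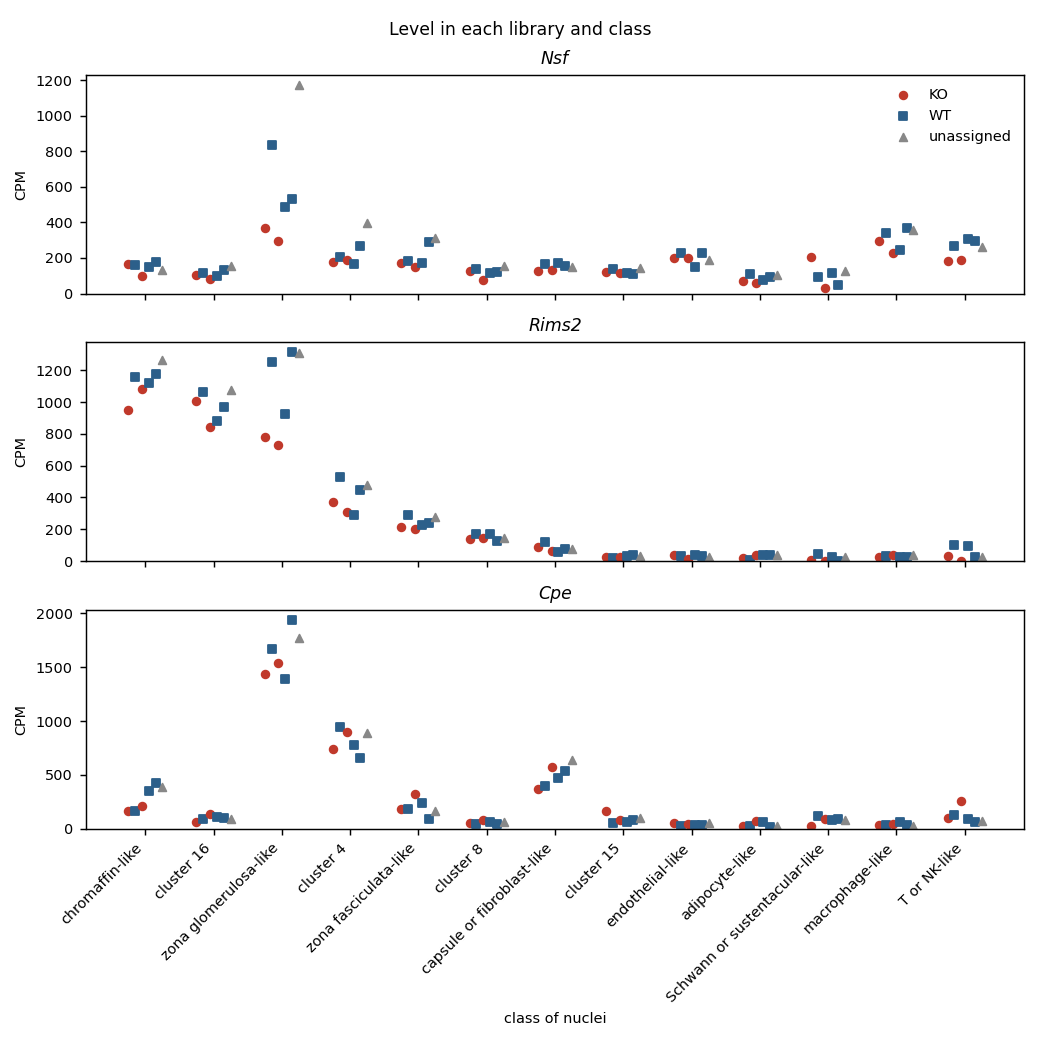
Points give the CPM of Nsf, Rims2 and Cpe in each library (KO red circles, WT blue squares, unassigned grey triangle) for 13 classes. Nsf and Cpe stand highest in zona glomerulosa-like nuclei, and Rims2 reaches similar levels there and in the chromaffin-like class. The KO-labelled points lie below the WT-labelled points in zona glomerulosa-like nuclei for Nsf and Rims2.

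The promoters of all members with an entry, whatever their pattern by class, were searched for the RE1 element, the site of the repressor REST, which silences neuronal genes in other cells, and for the cAMP response element. RefSeq promoter windows (GRCm38.p6, 250 bases before to 50 after the start) existed for 29 of the 37 members, 38 windows in all. The RE1 consensus was searched on both strands with at most 3 mismatches in its 18 fixed letters, and the cAMP response element as TGACGTCA. The 3 stretches that held an RE1 match or the cAMP element are shown 5′ to 3′ on the gene's strand, with matches in capitals and 30 flanking bases where the window allows.

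Syn1 (chrX:20921040-20921168, minus strand): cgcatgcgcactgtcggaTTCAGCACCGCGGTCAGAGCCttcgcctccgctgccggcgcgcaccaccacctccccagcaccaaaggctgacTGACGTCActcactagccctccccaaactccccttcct
Rph3a (chr5:121009584-121009664, minus strand): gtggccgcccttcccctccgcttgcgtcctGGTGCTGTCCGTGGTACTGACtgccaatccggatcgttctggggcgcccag
Pcsk1 (chr13:75089749-75089816, plus strand): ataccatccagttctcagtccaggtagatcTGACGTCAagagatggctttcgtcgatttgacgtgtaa

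In Syn1 the first capitals are an RE1 match with 1 mismatch, starting 232 bases before the start, and the second the cAMP element. In Rph3a the capitals are an RE1 match on the other strand with 3 mismatches, 96 to 76 bases before the start, and in Pcsk1 they are the cAMP element 78 bases before the start. RE1 matches occurred in 2 of 38 member windows (5.26%) and in 0.0944% of all 32851 promoter windows, and the cAMP element in 2 of 38 (5.26%) against 1.79%. The left 9 letters of RE1 alone, TTCAGCACC, which overlap the full motif, occurred exactly in windows of Syn1, Ptprn2 and Unc13a (7.89% against 0.371%). These are matches of letters in short windows and not measured sites. Rest itself, looked up after the values were seen, had 18 UMIs in chromaffin-like nuclei (mean 1.88 CPM) and 4 in cluster 16 (1.16 CPM), against means of 15.0 to 44.4 CPM in the other 11 tested classes.

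Cluster 16 and chromaffin-like nuclei differed in the levels of many members. In 6 of 6 libraries, 5 members were higher in cluster 16 than in chromaffin-like nuclei (Syt7, Snap25, Cadps, Erc2 and Syn3), as were 6.14% of genes, and 11 were lower (Syt1, Rab3c, Rph3a, Rims1, Cplx2, Sv2c, Ptprn, Ptprn2, Pcsk1, Pcsk2 and Cpe), as were 8.02% of genes. Syn3 ranged from 498 to 1173 CPM in cluster 16 against 198 to 302 CPM in chromaffin-like nuclei, without overlap (log2 ratio of means 1.76), and Cadps likewise did not overlap (0.94). Cplx2 ranged from 0.0 to 24.3 CPM in cluster 16 against 31.3 to 122 CPM (log2 ratio -2.59), Rims1 from 0.0 to 24.3 CPM against 48.6 to 89.8 CPM (-2.38), and Rph3a from 5.41 to 30.1 CPM against 33.4 to 91.8 CPM (-2.25). Pcsk1, at 93.7 to 266 CPM against 313 to 1227 CPM (-1.99), and Cpe (-1.53) were lower as well. All 3 processing enzymes, Cplx2 and rabphilin were thus lower in cluster 16, and a synapsin and a CAPS primer higher. Sv2c had no UMI in cluster 16 and 50 in chromaffin-like nuclei. The log2 ratio was 0.02 for Pclo, -0.00 for Syn1 and 0.06 for Bsn.

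**Figure D3:**
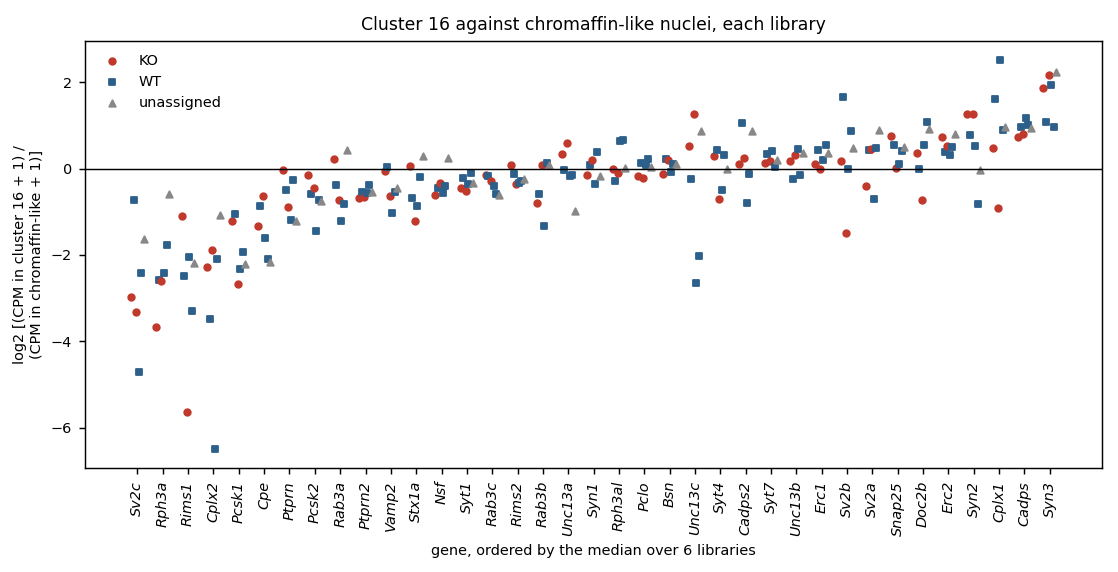
For each gene the points give log2 of CPM plus 1 in cluster 16 over CPM plus 1 in chromaffin-like nuclei, 1 point per library. Syn3 and Cadps lie above 0 and Rph3a, Rims1, Cplx2, Pcsk1 and Cpe below 0 in all 6 libraries; genes with few UMIs, such as Sv2b, Cplx1 and Unc13c, scatter on both sides.

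Other genes of the pathway came from lists not picked for how they moved between KO and WT. Chromaffin-like nuclei and cluster 16 were both above the other classes in 6 of 6 libraries for 2 of 14 further synaptotagmin genes (Syt9 and Syt17). The same held for 4 of 20 vesicle membrane and recycling genes (Syp, Synpr, Dnm1 and Snap91) and 6 of 19 cargo and processing genes (Chga, Chgb, Scg2, Scg5, Npy and Gal). Chga, Chgb and Npy are on the marker list that named the chromaffin-like class, so their place in this count follows from that choice. None of 14 further Rab3 and Rab27 pathway genes did so. Calcium channel genes were divided. Cacna1a, Cacna1b and Cacna1d of the 16 were above the other classes in both, and Cacna1h, Cacna2d3 and Cacnb2 were highest in zona glomerulosa-like nuclei.

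KO and WT were compared within each class on UMIs summed per library, with edgeR's quasi-likelihood test, the annotation batch as a covariate and Benjamini-Hochberg adjustment over all genes of the class. Over 13 classes, 258 member and class pairs passed the filter on low counts, every member in at least 1 class, and 2 were called at an adjusted p under 0.05, against 113 of 105189 pairs for all genes (0.107%). The 2 calls were Nsf in zona glomerulosa-like and Cadps2 in adipocyte-like nuclei.

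Nsf was lower in the zona glomerulosa-like nuclei of the KO-labelled libraries, where 26 members were tested and 71 of 11356 genes were called (0.625%). It stood at 368 and 293 CPM in the libraries labelled KO and at 835, 489 and 530 CPM in those labelled WT, from 237 to 7156 UMIs per library, so both KO values lay below all 3 WT values (mean 330.5 ± 52.8, SD, n = 2, against 618 ± 189, n = 3). The log2 fold was -0.99 ± 0.13 (SE) with an edgeR adjusted p of 0.00149, and the ratio of KO to WT was 0.441 and 0.576 within the 2 annotation batches. The call was lost without KO replicate 1 (log2 fold -0.81) or WT replicate 1 (-0.80), and without the batch term (-0.92, edgeR adjusted p = 0.670). With the batch term kept, leaving out either of these 2 libraries gives the same contrast, KO replicate 2 against WT replicates 2 and 3. With the unassigned library, at 1175 CPM, counted as KO the fold became -0.00 and the call was lost. The call was also lost with that library counted as WT, where the fold stayed below 0. Nsf had a negative fold in 12 of 13 classes, from -0.08 in cluster 15 to -0.58 in T or NK-like nuclei outside the called class, and 0.55 in the Schwann or sustentacular-like class; none of these 12 other folds was called.

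The next member in that class was Rims2, at 783 and 727 CPM in the KO-labelled and 1252, 926 and 1312 CPM in the WT-labelled libraries. Its groups did not overlap either (log2 fold -0.66 ± 0.15), and it missed the threshold at an edgeR adjusted p of 0.0586, while DESeq2 called it (adjusted p = 0.0170). With the unassigned library counted as KO the Rims2 fold was -0.30 (edgeR adjusted p = 1.00). Of the other scaffolds, Erc2 stood at 270.4 and 254 against 165, 237 and 213 CPM (0.43 ± 0.14) and Erc1 at 126 and 113 against 152, 131 and 159 CPM (-0.33 ± 0.14), neither called (edgeR adjusted p = 0.221 and 0.364). These 2 ELKS genes thus had folds of opposite sign. Rab3a, from 240 UMIs, stood at 15.7 and 22.3 against 9.22, 10.2 and 9.05 CPM, without overlap (0.94 ± 0.31, edgeR adjusted p = 0.225). Cpe, highest in this class, had values of 1437 and 1536 against 1666, 1394 and 1940 CPM, which overlapped (-0.17 ± 0.14, edgeR adjusted p = 0.680).

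Of the 26 tested members, 20 had folds above 0 and 6 below, with a median of 0.16 against 0.03 for all genes of the class. Among all genes of the class, 53.1% had folds above 0. The unadjusted edgeR p was under 0.05 for 7 of the 26 members and for 1388 genes (12.2%). The groups did not overlap for 13 of 26 members, against 25.3% of genes. Several marker sums shifted with genotype in the same nuclei, and their part in these values was not tested. The summed zona glomerulosa markers (14 genes, Calb2 at 0) were 8369 and 9147 CPM in KO-labelled against 9499 to 10525 CPM in WT-labelled libraries, and the zona fasciculata markers (12 genes) 3813 to 4227 against 3621 to 3719 CPM. The chromaffin markers (15 genes, all detected) summed to 137.1 and 169 CPM against 55.6 to 137.0 CPM. The 4 chromaffin yardstick genes all had folds above 0 there (median 0.79), none called. Sums for ganglion neurons (40.6 to 63.1 against 23.9 to 36.3 CPM, with Nefl and Slc18a3 at 0), capsule, endothelium and T or NK cells were also higher, and Gm42418 stood at 14902 and 11336 against 5547, 6883 and 3524 CPM. The unassigned library had 2895 CPM of Gm42418. Over all 19 lists, 6 were higher and 1 lower without overlap. Schwann or sustentacular markers overlapped between groups but stood at 2875 CPM in KO replicate 2 and 1777 CPM in WT replicate 2. The other libraries had 48.4 to 212 CPM. These 2 libraries, the shallowest (medians of 1289 and 1783 UMIs per barcode), were also highest for this list in chromaffin-like, zona fasciculata-like and adipocyte-like nuclei and cluster 16. The source of this difference was not tested. Depth also ran with genotype, as the KO-labelled library was the shallowest of each annotation batch. In zona glomerulosa-like nuclei the median was 7311 UMIs per nucleus in KO replicate 1 against 11401 in WT replicate 1. It was 1836 in KO replicate 2 against 2767.5 and 6590 in WT replicates 2 and 3. The part of depth in the Nsf, Rims2 and summed member values was not tested.

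**Figure D4:**
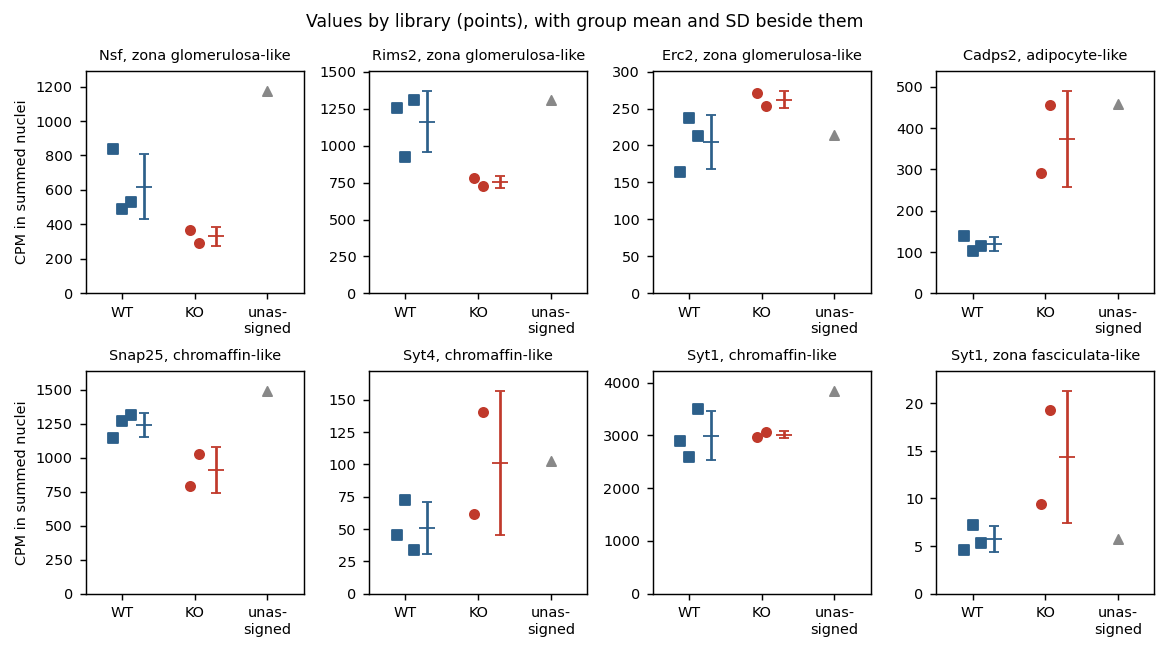
Points give CPM in nuclei summed per library for 8 gene and class pairs, with the mean and SD of the 3 WT and 2 KO libraries beside them and the unassigned library as a triangle. Nsf and Rims2 are lower in both KO-labelled libraries in zona glomerulosa-like nuclei and Cadps2 is higher in both in adipocyte-like nuclei, while Syt1 in chromaffin-like nuclei overlaps between groups.

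Cadps2 was higher in the adipocyte-like nuclei of the KO-labelled libraries, where 8 members were tested and 19 of 6721 genes were called (0.283%). It stood at 292 and 456 CPM in the libraries labelled KO and at 138, 103 and 116 CPM in those labelled WT, without overlap (mean 374 ± 116, SD, n = 2, against 119.0 ± 17.5, n = 3). The log2 fold was 1.65 ± 0.30 with an edgeR adjusted p of 0.0404. The values rest on 59 to 88 nuclei and 27 to 146 UMIs per grouped library, and the unassigned library stood at 458 CPM. The call was lost without KO replicate 2 (log2 fold 1.12), where the batch term leaves KO replicate 1 against WT replicate 1. It was also lost without the batch term (1.65, edgeR adjusted p = 0.350) and with doublets kept (1.75, 0.0775). Coarser clusters (1.65, edgeR adjusted p = 0.0519), nuclei of at least 1000 genes (1.59, 0.164) and the unassigned library counted as WT (1.03, 0.900) lost it too. In the tested classes where it was next highest, the Cadps2 fold was 0.24 ± 0.25 (cluster 8) and 0.29 ± 0.37 (cluster 15), neither called.

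In these adipocyte-like nuclei the summed adipocyte markers overlapped between groups (18976 and 17601 against 14811 to 18294 CPM). The sum of 8 hepatocyte markers was higher in KO-labelled libraries (506 and 845 against 214 to 341 CPM, and 726 CPM in the unassigned library), with Serpina1a at 0 in all libraries. Of all 19 lists, 5 were higher and 3 lower without overlap, and Gm42418 was higher too. Its value in the unassigned library was 3036 CPM, below every grouped library. The part of these shifts in the Cadps2 value was not tested.

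In chromaffin-like nuclei 35 members were tested and none was called, as 0 of 10447 genes were (0.0%) by edgeR; the unadjusted p was under 0.05 for 560 genes and 3 members, and 12 genes but no member were called by DESeq2. Without the filter on low counts edgeR called 93 genes, with Syt4 (adjusted p = 0.0424) and Syn2 (0.0386) among them, and it called 75 genes without WT replicate 3 and 32 without KO replicate 1, no member in either. Syt4, Snap25 and Cpe had the smallest p-values. Syt4 stood at 61.5 and 140.4 CPM in KO-labelled against 45.4, 72.7 and 34.0 CPM in WT-labelled libraries, overlapping, with a fold of 0.97 ± 0.32 (edgeR adjusted p = 0.890). Snap25 stood at 790.1 and 1029 against 1141, 1271 and 1312 CPM, both KO values below all WT values, with a fold of -0.44 ± 0.17 (edgeR adjusted p = 0.895). Cpe stood at 160.3 and 212 against 163, 346 and 424 CPM, overlapping (-0.50 ± 0.22, edgeR adjusted p = 0.905). Its 2 values from the libraries with the larger annotation, 1 of each genotype, were the lowest, and the ratio of KO to WT was 0.986 in that batch and 0.551 in the other.

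The remaining members with the smallest p-values split in sign, with edgeR adjusted p-values from 0.905 to 0.915. Folds were below 0 for Syn2 (-0.72 ± 0.35), Nsf (-0.34 ± 0.22) and Stx1a (-0.44 ± 0.32), and above 0 for Rph3a (0.55 ± 0.29), Syt7 (0.29 ± 0.17), Rab3a (0.81 ± 0.58, 69 UMIs) and Pcsk1 (0.25 ± 0.20). Several of these folds changed with the libraries left out. With the batch term kept, leaving out KO replicate 2 sets KO replicate 1 against WT replicate 1 alone. Folds were then -0.01 for Syn2, -0.01 for Nsf, 0.00 for Rph3a, -0.08 for Cpe, 0.38 for Syt4, 0.35 for Rab3a and -0.21 for Pcsk1. Leaving out KO replicate 1 sets KO replicate 2 against WT replicates 2 and 3. Folds were then -1.34 for Syn2, -0.71 for Nsf, 1.08 for Rph3a, -0.89 for Cpe, 1.43 for Syt4, 1.49 for Rab3a and 0.56 for Pcsk1. Syn2 values were 513 and 423 against 498, 684 and 1408 CPM, so that WT replicate 3 stood far above the other grouped libraries, and the unassigned library was at 1293 CPM. Rph3a (79.9 and 91.8 against 76.8, 54.2 and 33.4 CPM), Syt7 (474 and 385 against 358, 305 and 344 CPM) and Rab3a (11.5 and 12.6 against 8.68, 1.32 and 6.19 CPM) were higher in both KO-labelled libraries without overlap. Nsf (164 and 101 against 159.6, 147 and 175 CPM) and Stx1a (24.7 and 17.996 against 33.7, 26.4 and 21.0 CPM) overlapped. Pcsk1 values were 313 and 781 against 349, 475 and 565 CPM, overlapping, with 1227 CPM in the unassigned library. For Syt1 and Pclo the folds were -0.01 ± 0.19 and 0.02 ± 0.17. Of the 35 members, 12 had folds above 0 and 23 below (median -0.10 against 0.02 for all genes), while 52.1% of all genes had folds above 0. The groups did not overlap for 7 members, against 20.8% of genes.

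The summed level of all 37 members in chromaffin-like nuclei was 17502 and 17588 CPM in the KO-labelled, 18022, 18004 and 21218 CPM in the WT-labelled and 22481 CPM in the unassigned library. Both KO values were the lowest, and 1 WT value and the unassigned library stood well above the rest. In zona glomerulosa-like nuclei the sums were 3813 and 3666 against 4831, 3869 and 4847 CPM, again the lowest in both KO-labelled libraries, and Cpe, Rims2 and Nsf made up most of the sum. In zona fasciculata-like nuclei they were 1803 and 1855 against 1859, 1878 and 1555 CPM and overlapped.

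In zona fasciculata-like nuclei 30 members were tested and none was called, and no gene was (0 of 11781, 0.0%) by edgeR, with 252 genes and 4 members at an unadjusted p under 0.05 and 4 genes, no member, called by DESeq2. Syt1 stood at 9.46 and 19.2 CPM against 4.58, 7.22 and 5.30 CPM, and Ptprn at 11.8 and 12.8 against 4.24, 9.62 and 5.56 CPM, both higher in KO-labelled libraries without overlap (folds 1.30 ± 0.45 and 1.11 ± 0.48, edgeR adjusted p = 0.999). Both genes are among the 22 members highest in chromaffin-like nuclei and cluster 16, and the chromaffin yardstick genes also had folds above 0 in this class (4 of 4, median 0.65). Syt1 stood at 0.1498% to 0.629% of its chromaffin-like level there, below every yardstick value. Ptprn exceeded all 4 yardstick genes in 2 of 6 libraries. The part of free chromaffin RNA in the Syt1 and Ptprn folds was not tested. Rab3a (1.05 ± 0.38), Unc13c (0.80 ± 0.32) and Syt7 (0.85 ± 0.50) followed, with the same edgeR adjusted p. Rab3a values were 18.1 and 33.3 against 12.4, 10.8 and 10.9 CPM, without overlap, and Syt7 values 7.99 and 17.95 against 4.70, 13.2 and 5.56 CPM, overlapping. Unc13c, highest of the tested classes in cluster 8 and next in this one, stood at 57.6 and 55.1 against 32.6, 40.9 and 21.5 CPM, without overlap. Groups did not overlap for 11 of 30 members, against 16.2% of genes.

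**Figure D5:**
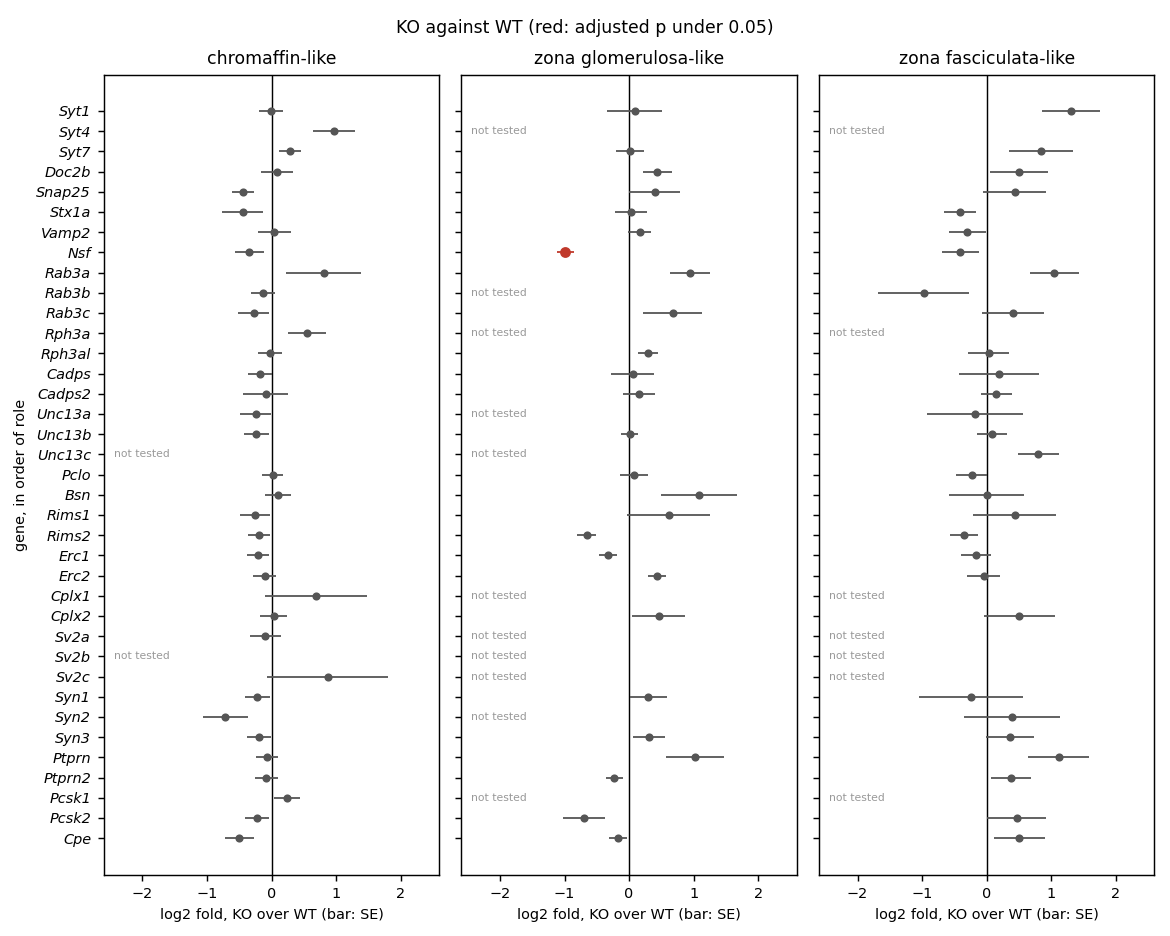
Points give the log2 fold of KO over WT and bars its SE for each member in 3 classes, with the call at an adjusted p under 0.05 in red. Nsf in zona glomerulosa-like nuclei, at -0.99, is the 1 red point; in chromaffin-like nuclei the points gather around 0, between -0.72 and 0.97.

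In the other 9 classes edgeR and DESeq2 called no member. An unadjusted edgeR p under 0.05 was reached by 3 of 28 members in capsule or fibroblast-like nuclei (6.60% of genes). It was reached by 2 of 27 in cluster 4 (4.98%), 2 of 27 in cluster 16 (4.42%) and 1 of 25 in cluster 8 (2.63%). In cluster 15 the count was 1 of 9 (2.99%) and in endothelial-like nuclei 1 of 25 (3.54%). Schwann or sustentacular-like, T or NK-like and macrophage-like nuclei had 0 (3.91% to 5.04%). The smallest edgeR adjusted p for a member was 0.522 (Sv2b in capsule or fibroblast-like nuclei, 1.54 ± 0.52). That class had 6 of 10364 genes called (0.0579%), cluster 16 had 7 of 5652 (0.124%), macrophage-like nuclei 5 of 7194 (0.0695%), cluster 4 had 3 of 10918 (0.0275%), endothelial-like nuclei 2 of 10619 (0.0188%), and clusters 8 and 15 and the Schwann or sustentacular-like and T or NK-like classes none (0.0%). Groups did not overlap for 7 of 27 members in cluster 16 (20% of its genes), 7 of 25 in cluster 8 (18.6%), 6 of 27 in cluster 4 (20.1%), 6 of 25 in endothelial-like (18.2%) and 4 of 28 in capsule or fibroblast-like nuclei (17.5%). In the classes with fewer tested members the count was 3 of 9 in cluster 15 (19.7%), 1 of 8 in Schwann or sustentacular-like (19.7%), 1 of 3 in T or NK-like (22.7%) and 0 of 7 in macrophage-like nuclei (20.6%), and in adipocyte-like nuclei it was 3 of 8 (24.3%). Cluster 16 had 27 members tested. Erc1 (-0.52 ± 0.21) and Syn3 (0.56 ± 0.23) had the smallest p-values there, both with an edgeR adjusted p of 1.00. Whether the genotype effect differed between classes was tested for 3 pairs of classes. No member passed, the smallest edgeR adjusted p being 0.475 for Ptprn between chromaffin-like and zona glomerulosa-like nuclei (2 of 11558 genes called, 0.0173%); for Nsf in the same pair the difference was 0.68 ± 0.24 (0.663).

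None of the further pathway genes was called in any class. The smallest edgeR adjusted p was 0.0501, for a cargo or processing gene in T or NK-like nuclei, followed by 0.0741 for a Rab3 or Rab27 pathway gene in zona glomerulosa-like nuclei. In chromaffin-like nuclei the closest were Vamp1, a vesicle SNARE, at 318 and 394 CPM against 183, 181 and 278 CPM (0.76 ± 0.20, edgeR adjusted p = 0.542), and Vgf, a granin-like precursor, at 19.5 and 82.8 against 13.4, 30.4 and 20.4 CPM (1.22 ± 0.34, edgeR adjusted p = 0.608). Vamp1 did not overlap between groups and Vgf did. Scg2 (secretogranin II) had a fold of 0.57 ± 0.19 and Dnm1, the dynamin of vesicle recycling, one of 0.53 ± 0.25 (edgeR adjusted p = 0.890 and 0.905). The other genes with the smallest p in their lists had folds of 0.70 ± 0.27 (Stx4a), -1.24 ± 0.77 (Syt10), 0.22 ± 0.21 (Syt16), -0.34 ± 0.21 (Rab3gap2), 0.29 ± 0.22 (Myrip), -0.34 ± 0.20 (Picalm), 0.41 ± 0.26 (Cacna1c) and 0.34 ± 0.30 (Cacna1h). Of 19 tested SNARE-related genes 9 had folds above 0 in this class, as did 7 of 19 recycling genes and 5 of 13 calcium channel genes. The same held for 10 of 14 cargo and processing genes, 4 of 7 synaptotagmin genes and 3 of 8 Rab3 and Rab27 pathway genes, against 52.1% of all genes. List medians ran from -0.14 to 0.14 against 0.02 for all genes.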

How the data were processed

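Single-nucleus UMI counts were the matrices the authors deposited, made with Cell Ranger 4.0.0 (KO and WT replicate 1) or 3.1.0 (the others) on mm10, per the file headers and the submitters' processing notes. Seurat is named there too, with no role given. No source used here says whether introns were counted, which in nuclei decides how many UMIs long genes receive. Barcodes needed at least 300 genes and at most 5% mitochondrial UMIs; doublets were removed as the nuclei with the highest Scrublet scores in each library, at an expected 0.8% per 1000 barcodes. Nuclei were clustered with scanpy 1.11.5 (2000 variable genes without the 37 members, 30 components, Harmony over libraries, Leiden resolution 0.8) and named from 19 marker lists. Levels are CPM of summed nuclei. KO and WT were tested with edgeR 4.0.16 (filterByExpr, TMM, batch plus genotype, quasi-likelihood F test), with DESeq2 1.42.0 and 15 other settings as alternatives; an SE is the absolute log2 fold divided by the square root of F. Of these steps, only the edgeR fit was tried on simulated counts, for chromaffin-like and zona glomerulosa-like sums and without a simulated batch effect. Filtering, doublet removal, clustering and naming were not simulated. Gene positions came from GENCODE vM21.

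The members, lists and tests were chosen with earlier results of these data known. Named genes are all members by class level, called members, the 10 smallest p-values in chromaffin-like and 5 each in zona glomerulosa-like and zona fasciculata-like nuclei, and the 2 smallest per pathway list. Replicate numbers follow sample order and pair nothing. Nothing states that libraries come from separate litters or days, so p-values measure the spread between these libraries. Classes under 20 nuclei in a grouped library (B or plasma-like, mesothelial-like, hepatocyte-like) were not tested. Summed UMIs per library in the tested classes started at 26836, so a gene of 10 CPM has few UMIs in the smallest sums.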

Additional observations from a re-analysis of the deposited data

Results flagged for a closer look

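The unassigned library lay above every WT-labelled library for 8 of the 21 member and class pairs named for a call or a small p, and below every one for 4. Its genotype labels disagree, so these values belong to no group and no cause was tested. In zona glomerulosa-like nuclei Nsf stood at 1175 CPM there, above all 5 grouped libraries, and Erc1 at 164 CPM. In adipocyte-like nuclei Cadps2 stood at 458 CPM, beside 292 and 456 CPM in the KO-labelled libraries. In chromaffin-like nuclei Snap25 stood at 1488 CPM, Pcsk1 at 1227 CPM, Syt7 at 387 CPM and Syt4 at 103 CPM, the first 2 above all grouped libraries and the last 2 within the KO-labelled values. In zona fasciculata-like nuclei Ptprn stood at 12.3 CPM, between the KO-labelled values.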

How the results depend on the processing

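Over 16 settings, 316 of 336 values of the 21 named folds kept their direction and side of the threshold. Of the rest, 11 lost and 7 gained a call, and 2 changed sign. All 11 lost calls were of the 2 called pairs, Cadps2 in adipocyte-like (6 of 16 settings) and Nsf in zona glomerulosa-like nuclei (5 of 16). The other named folds were uncalled in the main fit and had no call to lose. The count of 316 therefore does not measure how firm the 2 calls are. The sizes moved more widely. Both sign changes were Pcsk1 in chromaffin-like nuclei, at -0.12 with the unassigned library counted as WT and -0.21 without KO replicate 2, the lowest of its values without 1 library, the highest being 0.57. The cause of the changes below was not tested.

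With no filter on low counts, edgeR called 5 members over all classes, 2 in chromaffin-like and 2 in zona glomerulosa-like nuclei, and 93, 281, 40 and 104 genes in chromaffin-like, zona glomerulosa-like, zona fasciculata-like and adipocyte-like nuclei. DESeq2 called 12, 46, 4 and 12 genes there, and 2 members in zona glomerulosa-like nuclei. Without the batch term no member was called in any class, and 0 genes in zona glomerulosa-like or adipocyte-like nuclei. With doublets kept, 1 member was called over all classes (0 in adipocyte-like nuclei), with 44 zona glomerulosa-like and 2 adipocyte-like genes. Counting the unassigned library as KO, edgeR called 1 member over all classes, and 0 members and 0 genes in zona glomerulosa-like nuclei. With it counted as WT, 0 members were called in any class, with 4 zona glomerulosa-like and 0 adipocyte-like genes. Coarser clusters, and nuclei of at least 1000 genes, each left 1 member over all classes and 0 in adipocyte-like nuclei, the latter with 0 adipocyte-like genes. The summed member level, KO minus WT, was -1536 CPM in chromaffin-like and -776 CPM in zona glomerulosa-like nuclei, and 109 and -232 CPM with the unassigned library counted as KO.

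Leaving out 1 library gave 1 to 5 members over all classes, 0 to 3 in zona glomerulosa-like, 0 to 1 in adipocyte-like and 0 to 0 in chromaffin-like and zona fasciculata-like nuclei. Genes called ran from 0 to 75 in chromaffin-like, 16 to 332 in zona glomerulosa-like, 0 to 2 in zona fasciculata-like and 2 to 125 in adipocyte-like nuclei. The summed differences ran from -2075 to -468, -1099.9 to -611 and -39.9 to 122 CPM in chromaffin-like, zona glomerulosa-like and zona fasciculata-like nuclei. Where a group kept 1 library, that library was assumed to vary like the others. In these fits the batch term stayed in, so leaving out KO replicate 1 or WT replicate 1 gave the same genotype contrast. It set KO replicate 2 against WT replicates 2 and 3. Leaving out KO replicate 2 set KO replicate 1 against WT replicate 1. No paired analysis was possible because the replicate numbers are names in sample order and pair no libraries. Median depth differed between libraries and was lowest in the KO-labelled library of each annotation batch. With 2 KO libraries and such depths, members with few UMIs could not be resolved.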
